A study of Homo sapiens with 10 samples.

Results

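The non-canonical NF-kB genes described here are 8 of the 63299 genes in the count tables: MAP3K14, CHUK, TRAF2, TRAF3, BIRC2, BIRC3, NFKB2 and RELB. The list names the core of this pathway, and it was chosen from the siDDX41 against siCtrl comparison in these same libraries, with the MAP3K14 arm and its regulators in view. The difference between the groups is therefore given for the 8 members as a description, without a test. U2OS, a human line derived from an osteosarcoma, was sequenced 48 h after transfection with an siRNA pool against DDX41 (siDDX41) or a control siRNA (siCtrl), and each group has 5 libraries. Polyadenylated RNA was converted into stranded libraries, and both groups differed in nothing else that the labels name. Each library held between 21807041 and 24896398 counted reads. The labels number the libraries but do not say whether they came from separate cultures, so the p-values below measure the spread between these libraries, which may be technical. The libraries are bulk samples, in which a shift in the mix of cells and a change within each cell cannot be told apart.

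In the non-canonical pathway, the kinase NIK, encoded by MAP3K14, is made continuously and destroyed by a complex of TRAF3, TRAF2 and the ubiquitin ligases cIAP1 and cIAP2, encoded by BIRC2 and BIRC3. Receptors such as LTBR, CD40 and TNFRSF12A draw this complex away, NIK accumulates and activates the kinase IKKα (CHUK), and the NFKB2 product p100 is cut to p52, which enters the nucleus with RelB. NIK is set mainly by protein turnover, which transcript counts do not measure.

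The target of the knockdown separated the groups as labelled. Levels are given as CPM, reads per 1000000 reads in tested genes, with each library's total scaled by its TMM factor from edgeR. DDX41, a DEAD-box helicase gene (ENSG00000183258.11), stood at 49.1, 49.4, 47.3, 47.2 and 50.5 CPM in siCtrl replicates 1 to 5. In siDDX41 replicates 1 to 5 it stood at 11.5, 13.7, 12.4, 11.2 and 12.3 CPM. Every knockdown library was far below every control library. Its log2 fold change was -1.99 (SE 0.05, adjusted p = 4.47e-24 from edgeR, quasi-likelihood F test, Benjamini-Hochberg over all tested genes; n = 5 per group).

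The cells carried osteoblast lineage transcripts in both groups. The 8 osteoblast markers examined summed to between 4621 and 4829 CPM in siCtrl libraries and between 4795 and 5162 CPM in siDDX41 libraries, mostly from SPARC and COL1A1, while SP7, COL1A2 and BGLAP stood below 1 CPM in every library. The 8 immune markers summed to at most 1.29 CPM in any library, with CD3E and HLA-DRA among those listed at 0. The 6 epithelial markers summed to between 9.71 and 11.5 CPM, most of it EPCAM, with KRT20 and LGALS4 listed at 0. Of the osteoblast markers, 5 were tested, and SPARC and SPP1 were called higher and RUNX2 and ALPL lower in siDDX41, where RUNX2 had 31.2 to 34.4 CPM in siCtrl and 24.1 to 26.1 CPM in siDDX41. Their part in the values below was not tested.

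A count of 0 in these tables cannot be read as absence everywhere. RPS18 and DDX39B on chromosome 6 were listed at 0 in each library, and HNRNPL, ACTN4 and EIF3K on chromosome 19 had at most 2 reads in any library, although all 5 are used by nearly every cell. These genes were picked after their values were seen. NFKBIB on chromosome 19 and LTA and LTB on chromosome 6 lie among such genes: of the 34 other protein-coding genes that start within 500000 bases of NFKBIB, 22 had at most 10 reads over the 10 libraries, and of the 62 around LTA, 56 did. The same held for 30 of 37 around HLA-DRA and 22 of 36 around LGALS4, so the 0s of these markers carry no information on cell type. Over all 19629 protein-coding genes the share was 23.9%, and around the 8 members it lay between 10.0% and 33.3%. The reason for these empty stretches was not tested, and genes in them are called listed at 0.

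All 8 members passed the expression filter, with between 202 and 2462 reads per library. In 6 of the 8, every siDDX41 library lay above every siCtrl library, which held for 26.7% of the 16143 tested genes. The same 6 members were among the genes called higher in siDDX41 (adjusted p under 0.01 in edgeR's quasi-likelihood test), a call made for 30.3% of tested genes, and 0 members were called lower, against 32.1% of tested genes. Because the comparison itself chose the members, nothing is read from these counts. CHUK and TRAF2 had overlapping groups.

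**Figure D1:**
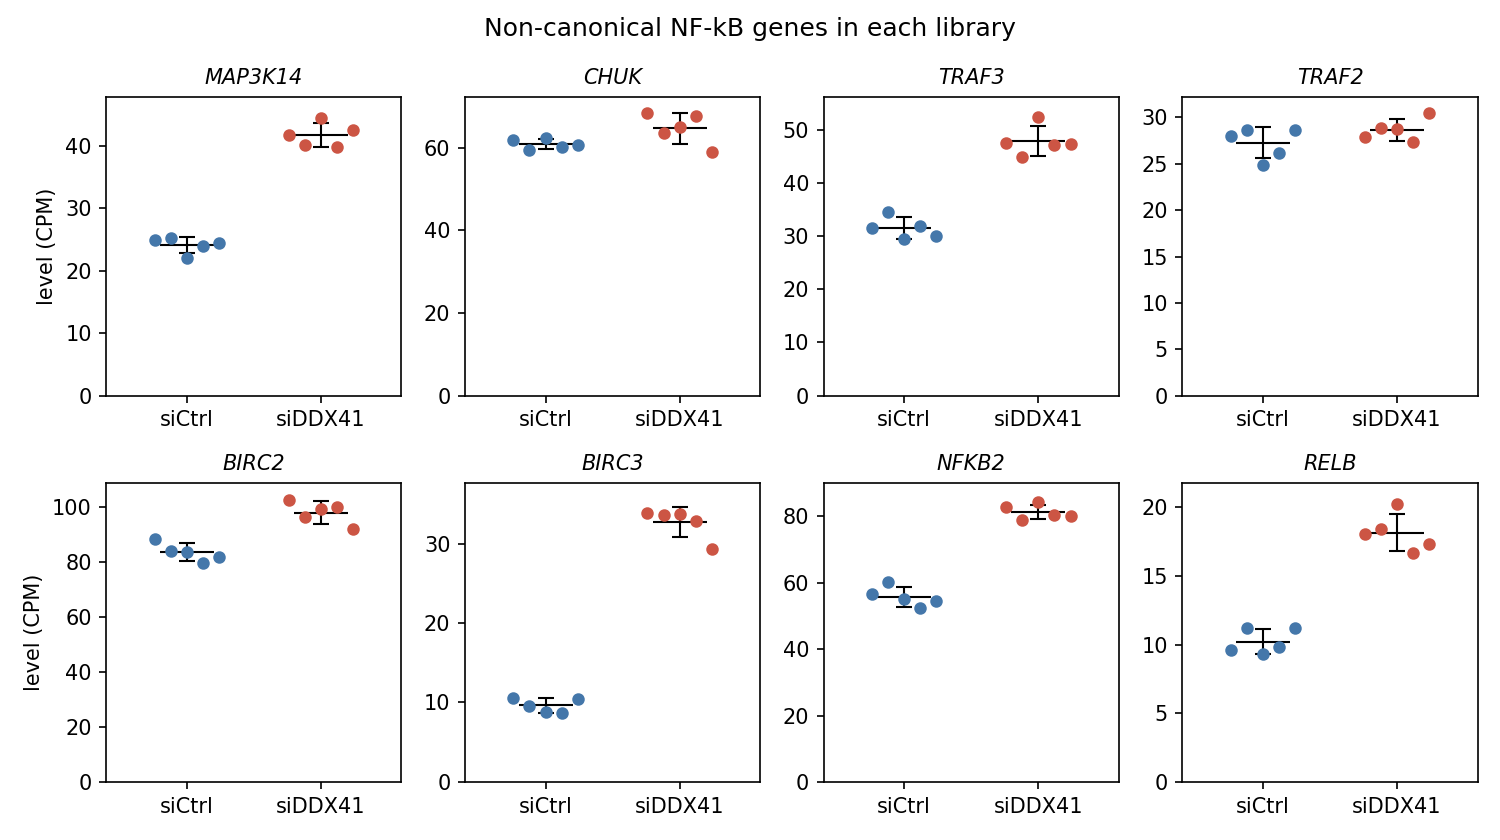
Level of each of the 8 members in CPM (linear axis from 0) in every library; points are libraries, horizontal bars are group means and vertical bars are SD (n = 5). MAP3K14, TRAF3, BIRC2, BIRC3, NFKB2 and RELB have no overlap between siCtrl (blue) and siDDX41 (red), while CHUK and TRAF2 overlap.

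MAP3K14 (ENSG00000006062.13) lies on the minus strand of chromosome 17 at chr17:45263119-45317029 in GRCh38. Its level was 24.91, 25.3, 22.1, 23.9 and 24.4 CPM in siCtrl replicates 1 to 5. In siDDX41 replicates 1 to 5 it was 41.7, 40.04, 44.5, 39.7 and 42.5 CPM. The lowest knockdown library, replicate 4, was well above the highest control library, replicate 2, and neither group held a library far from its others. On the log2 scale the transcript of NIK was higher by 0.79 (SE 0.04), which is 1.73-fold, on 525 to 1103 reads per library.

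MAP3K14 shares 858 exon bases, 15.1% of its exons, with MAP3K14-AS1 on the opposite strand. The libraries were stranded, but the strand setting of the counting was not given in the sources used here, so reads of the pair may not have been told apart. MAP3K14-AS1 itself had at most 0.0920 CPM in any library. Of 4534 windows of 50 bases along the longest annotated MAP3K14 transcript, 0 occurred in an annotated transcript of another gene. The next protein-coding genes upstream of MAP3K14, ARHGAP27 and PLEKHM1, were listed at 0 in every library. They were named after their values were seen, and whether reads from the MAP3K14 end facing them were lost was not tested.

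CHUK (ENSG00000213341.10, chr10:100188300-100229596, minus strand) encodes IKKα, the kinase that NIK activates. It was measured at 61.9, 59.5, 62.3, 60.2 and 60.6 CPM in siCtrl replicates 1 to 5. In siDDX41 replicates 1 to 5 it was measured at 68.4, 63.5, 65.1, 67.6 and 58.9 CPM. The first 4 knockdown libraries lay above the controls, but replicate 5 lay below all of them, and the groups overlapped. Between the groups, its log2 fold change was 0.09 (SE 0.04). Without siDDX41 replicate 5 it was 0.12 (SE 0.04). CHUK was then among the genes called higher in siDDX41, of which that fit had 4745 over the whole table. In no other fit was CHUK called at an adjusted p under 0.01.

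TRAF3 (ENSG00000131323.14, chr14:102777449-102911500, plus strand) encodes the adaptor that binds NIK. Its transcript stood at 31.4, 34.6, 29.4, 32.0 and 30.0 CPM in siCtrl replicates 1 to 5, and at 47.5, 44.9, 52.4, 47.1 and 47.4 CPM in siDDX41 replicates 1 to 5. Replicate 3 was the highest knockdown library, and the closest libraries of the 2 groups were still far apart. The log2 fold change was 0.60 (SE 0.05), so the transcript of the NIK adaptor was higher along with that of NIK.

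TRAF2 (ENSG00000127191.17, chr9:136881912-136926607, plus strand), which joins TRAF3 to the cIAP proteins, had 28.0, 28.7, 24.89, 26.1 and 28.6 CPM in siCtrl replicates 1 to 5. It had 27.8, 28.9, 28.7, 27.3 and 30.4 CPM in siDDX41 replicates 1 to 5. The groups overlapped in part of their range, with siCtrl replicates 3 and 4 below the rest. On the log2 scale the difference was 0.07 (SE 0.05), beside 0.60 for TRAF3 in the same libraries, and these values were not tested against each other. Without siCtrl replicate 3 the TRAF2 difference was 0.04 (SE 0.05).

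BIRC2 and BIRC3 are neighbours on the plus strand of chromosome 11, at chr11:102347211-102378670 and chr11:102317484-102339403 (ENSG00000110330.8 and ENSG00000023445.13). BIRC2 stood at 88.4, 84.1, 83.8, 79.7 and 81.9 CPM in siCtrl replicates 1 to 5, and at 102.6, 96.3, 99.2, 100.2 and 92.0 CPM in siDDX41 replicates 1 to 5. The groups did not overlap, although siDDX41 replicate 5 came close to siCtrl replicate 1. The difference on the log2 scale was 0.23 (SE 0.03). BIRC3 stood at 10.6, 9.55, 8.79, 8.64 and 10.5 CPM in siCtrl replicates 1 to 5, and at 33.9, 33.6, 33.7, 32.9 and 29.4 CPM in siDDX41 replicates 1 to 5. Every knockdown library was above the controls by a wide margin. Replicate 5 stood below the other knockdown libraries, as it did for CHUK and BIRC2 but not for the remaining members. For TRAF2 it was the highest knockdown library, at 30.4 CPM. The log2 fold change of BIRC3 was 1.76 (SE 0.06), which is 3.39-fold and the largest of the 8 members. Without siDDX41 replicate 5 it was 1.80.

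The paralogs BIRC2 and BIRC3 share little exact sequence. Of 6828 windows of 50 bases in the longest BIRC3 transcript, 11 (0.161%) occurred in a transcript of another gene, which was BIRC2. How reads that fit several places were counted was not given in the sources used here. Per kb of exon, BIRC3 made up 6.49 ± 0.493% (SD, n = 5) of the summed BIRC2 and BIRC3 level in siCtrl and 16.7 ± 0.467% in siDDX41. BIRC2 was therefore the more abundant cIAP transcript in every library of both groups.

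NFKB2 (ENSG00000077150.18, chr10:102394110-102402524, plus strand) encodes p100, the precursor of p52. It had 56.7, 60.3, 55.0, 52.3 and 54.6 CPM in siCtrl replicates 1 to 5. It had 82.8, 79.0, 84.2, 80.4 and 80.2 CPM in siDDX41 replicates 1 to 5. The knockdown libraries were tightly grouped and clear of the controls. For p100 the transcript's log2 fold change was 0.54 (SE 0.04).

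RELB (ENSG00000104856.13, chr19:45001461-45038192, plus strand) encodes the partner of p52. Its level was 9.60, 11.2, 9.29, 9.80 and 11.2 CPM in siCtrl replicates 1 to 5 and 18.1, 18.4, 20.2, 16.7 and 17.3 CPM in siDDX41 replicates 1 to 5. The groups were well separated, with siDDX41 replicate 3 the highest library. RELB had a log2 fold change of 0.83 (SE 0.07). Per kb of exon, RELB was 25.4 ± 1.55% of the summed RELB and NFKB2 level in siCtrl and 29.3 ± 1.24% in siDDX41 (SD, n = 5 each), without overlap between the groups. The pairs of members set against each other in this way were picked after their values were seen.

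Levels of different genes were compared per kb of the union of annotated exons. In siCtrl the order was BIRC2 with 18.5 ± 0.714, NFKB2 with 9.99 ± 0.532, CHUK with 8.82 ± 0.167 and TRAF2 with 7.44 ± 0.455 CPM per kb (SD, n = 5). MAP3K14 followed with 4.25 ± 0.220, RELB with 3.41 ± 0.304, TRAF3 with 2.65 ± 0.171 and BIRC3 with 1.29 ± 0.124 CPM per kb (SD, n = 5). On this length no neighbours in the order overlapped in siCtrl, whereas per kb of the longest transcript the order was the same but CHUK overlapped TRAF2 and MAP3K14 overlapped RELB. The NIK transcript was thus below that of its substrate kinase CHUK and above that of its adaptor TRAF3. Among 15936 tested genes with an annotated length, MAP3K14 lay at percentile 51.5 in siCtrl and BIRC2 at percentile 83.9.

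In siDDX41 the upper part of the order was the same, with BIRC2 at 21.7 ± 0.902, NFKB2 at 14.6 ± 0.382 and CHUK at 9.37 ± 0.548 CPM per kb (SD, n = 5). TRAF2 at 7.82 ± 0.324 and MAP3K14 at 7.36 ± 0.340 CPM per kb overlapped on this length. RELB stood at 6.05 ± 0.449 CPM per kb, apart from its neighbours on this length. BIRC3 at 4.37 ± 0.252 and TRAF3 at 4.03 ± 0.232 CPM per kb also overlapped. These relations depend on the length: per kb of the longest transcript, TRAF2 at 12.6 ± 0.523 and MAP3K14 at 9.10 ± 0.420 CPM were apart, while BIRC2 overlapped NFKB2, CHUK overlapped TRAF2 and MAP3K14 overlapped RELB. On that length TRAF3 at 5.06 ± 0.291 CPM per kb stood before BIRC3 at 4.75 ± 0.274 CPM per kb, again with overlap. MAP3K14 lay at percentile 64.4 of the tested genes in this group. Per kb, the MAP3K14 share of the summed MAP3K14 and TRAF3 level was 61.6 ± 1.06% in siCtrl and 64.6 ± 0.638% in siDDX41 (SD, n = 5 each). Both transcripts were higher in siDDX41, so their balance shifted by little, though without overlap. Against CHUK, the MAP3K14 share was 32.5 ± 1.44% in siCtrl and 43.99 ± 2.06% in siDDX41.

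Spread within a group is described here, although the comparison that chose the members may depend on it. The coefficient of variation (SD over mean) of the 8 members lay between 1.89% and 9.61% in siCtrl and between 2.62% and 7.42% in siDDX41. For MAP3K14 it was 5.18% in siCtrl and 4.62% in siDDX41, where counting alone gives 4.15% and 3.21%, and where the median tested gene of similar level had 5.00% and 4.16%. MAP3K14 was thus close to typical for its level. CHUK varied by 1.89% in siCtrl, below the 2.61% that counting alone gives, and only 8.87% of genes of similar level varied less. In siDDX41 it varied by 5.84%, higher than in 88.5% of genes of similar level. That siDDX41 value includes replicate 5 at 58.9 CPM, below the others at 63.5 to 68.4 CPM, and the variation without it was not computed. For 7 members in siCtrl and 6 in siDDX41 the variation was above the median of similar genes.

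The promoter sequences of the members were examined for the NF-kB binding consensus (the 10-base kB consensus, both strands). RefSeq promoters (GRCh38.p14, 250 bases before to 50 after a start site) were found for 7 members, with 10 promoters in all, and RELB had no entry. A match was present in 4 of the 10 promoters, belonging to NFKB2, BIRC3 and TRAF3, and in 11.3% of all 35116 promoters of the table. Counted by gene, 3 of 7 members had a match in any promoter, against 13.3% of 27305 genes. The MAP3K14, CHUK, TRAF2 and BIRC2 promoters held no match in this window. A match describes the sequence and is not evidence of binding. The shares over all promoters were not matched for GC content. Whether the matches bear on the differences between the groups was not tested. The bases before the start site are printed for the 3 members with a match and for MAP3K14, without stretches that belong to annotated exons, and capitals mark the matches that lie wholly within the printed bases (the NFKB2 stretch ends inside a further match, left in lower case):
BIRC3, chr11:102317234-102317483, plus strand: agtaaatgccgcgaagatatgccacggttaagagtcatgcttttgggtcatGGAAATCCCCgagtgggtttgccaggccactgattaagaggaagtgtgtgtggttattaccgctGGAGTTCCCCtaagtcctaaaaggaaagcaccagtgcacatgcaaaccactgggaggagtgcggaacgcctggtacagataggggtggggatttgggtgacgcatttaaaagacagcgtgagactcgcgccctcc
NFKB2, chr10:102395455-102395692, plus strand: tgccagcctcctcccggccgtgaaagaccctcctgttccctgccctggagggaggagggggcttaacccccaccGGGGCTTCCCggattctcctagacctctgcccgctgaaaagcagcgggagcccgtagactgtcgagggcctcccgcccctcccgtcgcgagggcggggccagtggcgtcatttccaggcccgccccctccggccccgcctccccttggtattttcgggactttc
TRAF3, chr14:102777199-102777448, plus strand: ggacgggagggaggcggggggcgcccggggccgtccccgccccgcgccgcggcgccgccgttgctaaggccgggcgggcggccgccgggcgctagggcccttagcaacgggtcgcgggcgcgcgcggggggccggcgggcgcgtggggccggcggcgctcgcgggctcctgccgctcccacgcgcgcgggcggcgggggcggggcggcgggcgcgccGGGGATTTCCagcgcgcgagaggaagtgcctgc
MAP3K14, chr17:45317030-45317270, minus strand: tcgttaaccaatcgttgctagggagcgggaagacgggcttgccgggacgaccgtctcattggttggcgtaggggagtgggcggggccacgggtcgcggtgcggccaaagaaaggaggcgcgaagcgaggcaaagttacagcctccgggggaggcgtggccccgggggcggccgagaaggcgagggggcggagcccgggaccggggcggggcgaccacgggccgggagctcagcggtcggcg

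In BIRC3, the matches GGAAATCCCC and GGAGTTCCCC began 199 and 135 bases before the start site. NFKB2 held matches at 2 of its 3 start sites. At the most downstream start they were GGGGCTTCCC, 176 bases before it, and GGGACTTTCC, 21 bases before it and reaching into an annotated exon. At the middle start they were GGGAATTCCC and the overlapping GGAATTCCCC, together with GGGGCTTTCC 78 bases before it. The examined bases before the middle start all lie in annotated exons, so none of them is printed. The printed NFKB2 stretch lies before the most downstream start. TRAF3 held GGGGATTTCC 33 bases before its start. Of all promoters, 2.04% held at least 2 matches and 0.370% at least 3. The GC content of member promoters lay between 53.3% in BIRC3 and 86.0% in TRAF3, with 72.7% in MAP3K14, and the median over the table was 58.7%.

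The pathway genes outside the members were tested in the fit over all genes, with calls at an adjusted p under 0.01 in edgeR's quasi-likelihood test. Of 33 such genes, 21 were tested, and 10 were called higher and 4 lower in siDDX41, beside 30.3% and 32.1% of all tested genes. Their median log2 fold change was 0.13, and that of all tested genes was -0.0014.

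Of 10 receptor genes, 6 were tested. TNFRSF12A, the receptor for TWEAK, rose from 157, 170, 152, 157 and 165 CPM in siCtrl replicates 1 to 5 to 227, 216, 215, 216 and 223 CPM in siDDX41 replicates 1 to 5. All knockdown libraries were above all controls, and its log2 fold change was 0.45 (SE 0.03, adjusted p = 5.47e-14 from edgeR). LTBR, the lymphotoxin beta receptor, rose from 57.2 to 63.8 CPM in siCtrl libraries to 65.8 to 74.4 CPM in siDDX41 libraries, with a log2 fold change of 0.20 (SE 0.04, adjusted p = 2.04e-05 from edgeR). TNFRSF13C, the BAFF receptor of B cells, fell from between 6.78 and 8.91 CPM to between 3.79 and 4.94 CPM, with a log2 fold change of -0.82 (SE 0.10, adjusted p = 1.15e-08 from edgeR). TNFRSF8 had a log2 fold change of 0.27 (SE 0.12, adjusted p = 0.0523 from edgeR) and did not pass, nor did CD40 and TNFRSF9. Thus the receptors that were called did not share a direction.

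Ligand genes were mostly near or at 0. Of 11 ligands, 4 were tested, of which 1 was called higher and 2 lower, beside 30.3% and 32.1% of all tested genes. CD70 fell from 24.7, 25.6, 20.7, 24.6 and 25.3 CPM in siCtrl replicates 1 to 5 to 12.7, 11.8, 11.9, 13.4 and 11.8 CPM in siDDX41 replicates 1 to 5. No library of one group reached the other, and its log2 fold change was -0.97 (SE 0.06, adjusted p = 9.21e-15 from edgeR). TNFSF9, the ligand of TNFRSF9, was called higher with a log2 fold change of 0.25 (SE 0.08, adjusted p = 0.00568 from edgeR), but its groups overlapped. This call was lost without siCtrl replicate 3, the lowest control library (adjusted p = 0.0237 from edgeR). It was also lost without siDDX41 replicate 1, 3 or 5 (adjusted p = 0.02, 0.0121 and 0.0148 from edgeR), and over 15 alternative fits the adjusted p ran from 0.000398 to 0.0237. TNFSF4 and TNFSF12 are named after their values were seen, since both lay below 1 CPM on average. TNFSF4 had a log2 fold change of -1.27 (SE 0.31, adjusted p = 0.000666 from edgeR). TNFSF12, which encodes TWEAK, had -0.74 (SE 0.30, adjusted p = 0.0273 from edgeR) and was called lower only without siCtrl replicate 3 (adjusted p = 0.00147 from edgeR, with 0.00147 to 0.103 over 15 alternative fits). LTA and LTB, ligands of LTBR and its relatives, were listed at 0 in the empty stretch of chromosome 6 described above.

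Of 5 regulators of NIK and TRAF3, 4 were tested, and 3 were called higher and 0 lower, beside 30.3% and 32.1% of all tested genes. TBK1, a kinase that can phosphorylate NIK and limit it, rose from between 50.6 and 53.4 CPM to between 64.0 and 67.9 CPM, a log2 fold change of 0.34 (SE 0.03, adjusted p = 1.89e-10 from edgeR). OTUD7B, a deubiquitinase that stabilises TRAF3, rose from between 45.4 and 53.3 CPM to between 60.6 and 65.3 CPM, a log2 fold change of 0.33 (SE 0.04, adjusted p = 1.37e-08 from edgeR). ZFP91, a ubiquitin ligase that acts on NIK, had a log2 fold change of 0.22 (SE 0.03, adjusted p = 1.22e-08 from edgeR). PELI1, a ubiquitin ligase that promotes NIK breakdown, had -0.11 (SE 0.05, adjusted p = 0.0405 from edgeR) and did not pass. None of the called regulators had overlapping groups. Every siDDX41 library lay above every siCtrl library in 26.7% of all tested genes, and nothing is read from so few regulators.

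The 7 genes of p100 processing or turnover were all tested, of which 4 were called higher and 1 lower, beside 30.3% and 32.1% of all tested genes. FBXW7, the substrate receptor that marks p100 for destruction, stood at 50.1, 43.5, 48.5, 48.0 and 45.4 CPM in siCtrl replicates 1 to 5. In siDDX41 replicates 1 to 5 it stood at 75.3, 71.0, 74.0, 71.3 and 71.8 CPM. The groups were far apart, and its log2 fold change was 0.63 (SE 0.04, adjusted p = 4.25e-15 from edgeR). The log2 fold changes of the ligase subunits SKP1 and CUL1 were 0.18 and 0.16 (SE 0.03 and 0.04, adjusted p = 2.18e-06 and 0.000634 from edgeR). That of the subunit RBX1 was -0.20 (SE 0.04, adjusted p = 3.86e-05 from edgeR). BTRC, the receptor that recognises p100 for processing, was also called higher, and GSK3B and OTUB1 were not called. The CUL1 exons share 11.1% of their length with an antisense lncRNA gene of 1.01 to 1.96 CPM.

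**Figure D2:**
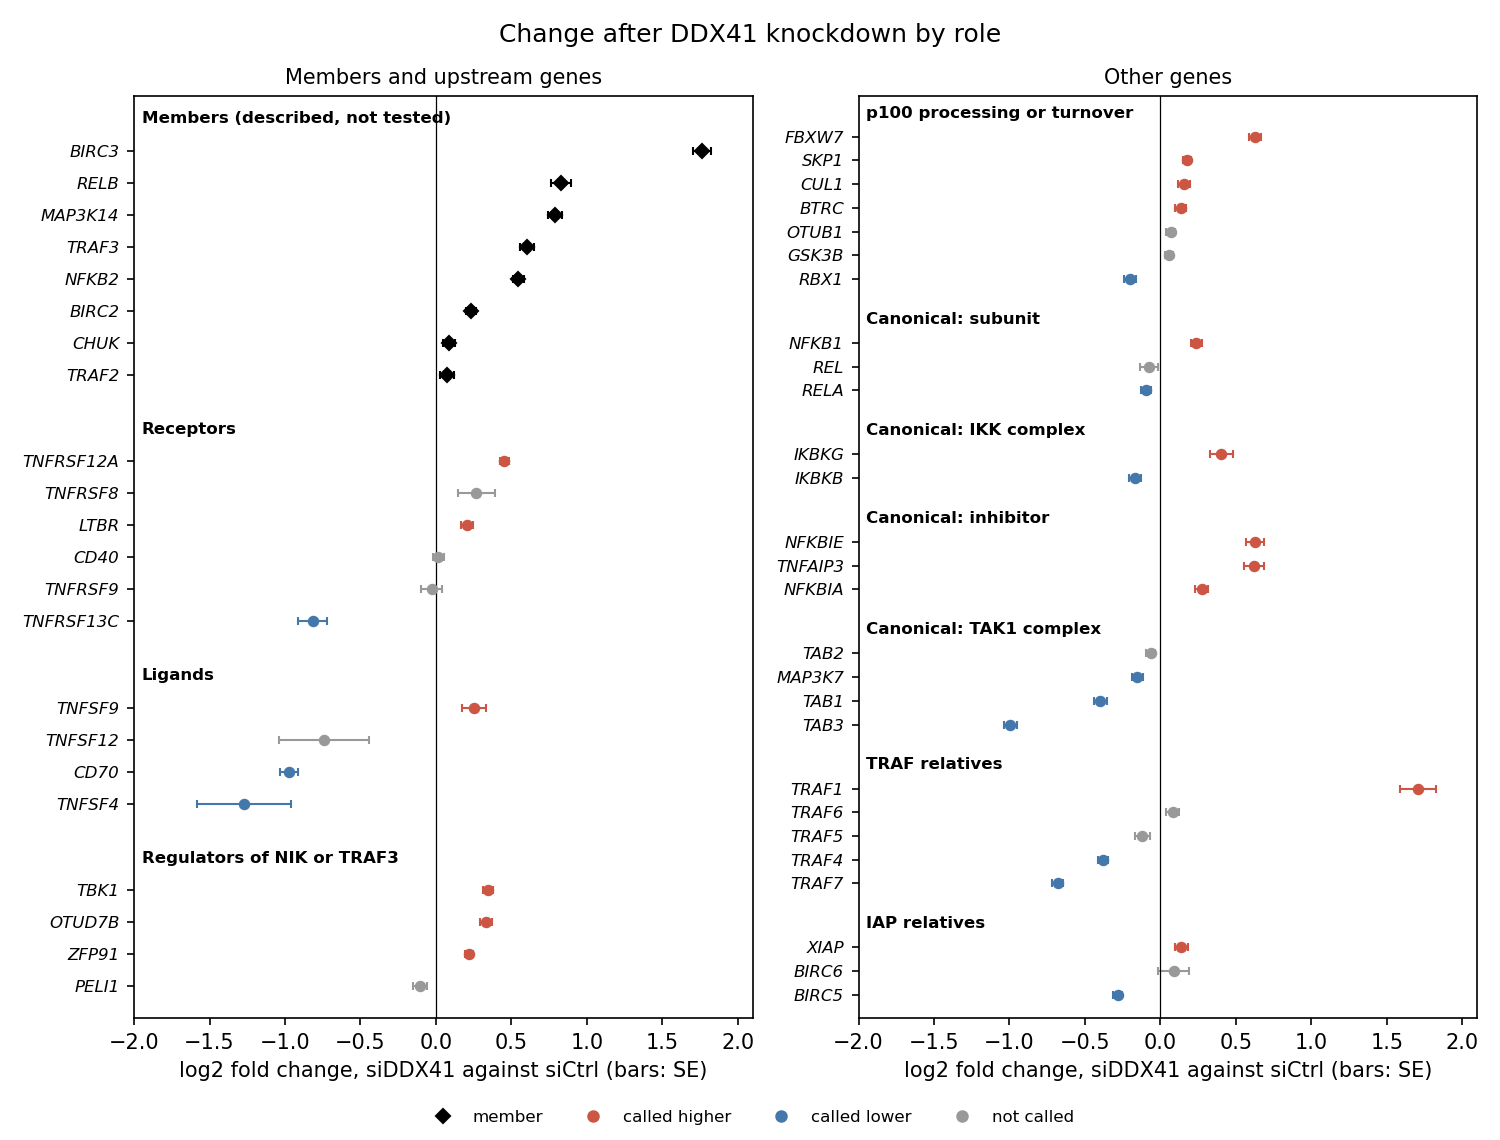
Log2 fold change of siDDX41 against siCtrl (n = 5 each) for the members (black diamonds, described without a test) and for tested genes of the comparison lists by role; bars are SE, and red, blue and grey mark genes called higher, called lower and not called at an adjusted p under 0.01 in edgeR. BIRC3 at 1.76 and TRAF1 at 1.71 lie farthest to the right, and TNFSF4 at -1.27 and TAB3 at -0.99 farthest to the left.

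Genes of the canonical NF-kB pathway were set beside the members as the most similar pathway. Of 13 genes, 12 were tested, and 5 were called higher and 5 lower, beside the same shares of all tested genes, with a median log2 fold change of -0.07. The difference from the members was not tested, because the members were chosen from this comparison. The inhibitors NFKBIE (0.63, SE 0.06), TNFAIP3 (0.62, SE 0.07) and NFKBIA (0.27, SE 0.04) were all called higher on the log2 scale (adjusted p = 1.13e-10, 1.2e-09 and 2.14e-06 from edgeR). All 3 are known NF-kB target genes, and NFKBIB was listed at 0.

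The canonical subunit NFKB1, which encodes p105 and p50, had a log2 fold change of 0.24 (SE 0.04, adjusted p = 1.42e-06 from edgeR), below the 0.54 of its paralog NFKB2. RELA had -0.10 (SE 0.03, adjusted p = 0.00829 from edgeR), and REL had -0.08 (SE 0.06, adjusted p = 0.253 from edgeR), which did not pass. The RELA groups overlapped, and its call was lost in 9 of 15 alternative fits, over which the adjusted p ran from 0.00331 to 0.0426. These were DESeq2's Wald test, DESeq2 size factors, no filter on low counts, and the fits without siCtrl replicate 1, 4 or 5 (adjusted p = 0.0189, 0.0139 and 0.0342 from edgeR) or without siDDX41 replicate 1, 3 or 4 (adjusted p = 0.0426, 0.0225 and 0.017 from edgeR). In the IKK complex, which canonical signaling needs beside CHUK, 1 of 2 listed genes was called higher and 1 lower. The latter was IKBKB, with a log2 fold change of -0.17 (SE 0.04, adjusted p = 0.000294 from edgeR), without overlap between the groups. The TAK1 partners TAB3 and TAB1 fell, with log2 fold changes of -0.99 and -0.40 (SE 0.04 each), and the kinase MAP3K7 was lower at -0.15 (SE 0.04; adjusted p = 3.86e-17, 1.28e-09 and 0.000668 from edgeR). The groups overlapped for MAP3K7 but not for TAB3 and TAB1. TAB2 had -0.06 (SE 0.03, adjusted p = 0.0474 from edgeR) and did not pass.

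Of 10 relatives of TRAF2, TRAF3, BIRC2 and BIRC3, 8 were tested, and 2 were called higher and 3 lower, beside 30.3% and 32.1% of all tested genes. Their median log2 fold change was -0.02. TRAF1, an adaptor that pairs with TRAF2, rose from 1.72, 2.08, 2.103, 1.75 and 2.08 CPM in siCtrl replicates 1 to 5 to 4.83, 6.77, 5.93, 7.20 and 7.07 CPM in siDDX41 replicates 1 to 5. The groups did not overlap, and its log2 fold change was 1.71 (SE 0.12, adjusted p = 1.3e-13 from edgeR), close to that of BIRC3. TRAF7 and TRAF4 fell, with log2 fold changes of -0.68 and -0.38 (SE 0.04 and 0.03, adjusted p = 3.96e-15 and 1.19e-11 from edgeR), where the TRAF7 exons share 950 bases with antisense CASKIN1 at 1.77 to 3.86 CPM. BIRC5, a mitotic relative of the cIAP genes, fell with -0.28 (SE 0.03, adjusted p = 1.59e-09 from edgeR). XIAP was called higher at 0.14 (SE 0.04, adjusted p = 0.00558 from edgeR), with overlapping groups. Its call was lost in 8 of 15 alternative fits, with an adjusted p from 0.00129 to 0.0215. These were scaling by total counts and the fits without siCtrl replicate 1, 2, 4 or 5 (adjusted p = 0.0166, 0.0105, 0.0111 and 0.0201 from edgeR) or without siDDX41 replicate 1, 2 or 3 (adjusted p = 0.0193, 0.0111 and 0.0215 from edgeR).

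Of 7 genes known for the RelB:p52 response of lymphoid stroma, 1 passed the filter, the sulfotransferase gene CHST4, with a log2 fold change of -0.09 (SE 0.12, adjusted p = 0.501 from edgeR). CCL19, CCL21 and GLYCAM1, the last annotated as a pseudogene in human, were listed at 0, which was not checked against their surroundings, and CXCL13 and MADCAM1 had at most 6 reads in any library. The chemokine gene CXCL12, named after its values were seen, had 0.245 to 0.642 CPM in siCtrl libraries and 0.0460 to 0.128 CPM in siDDX41 libraries and stayed under the filter. Without the filter its log2 fold change was -2.13 (adjusted p = 5.76e-06 from edgeR), and with DESeq2's Wald test it was -2.20 (adjusted p = 0.000373). At this depth the list gives little information on RelB:p52 output.

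Over the 10 libraries, the profile of MAP3K14 was compared with those of 11277 other tested genes of at least 5 CPM, as the root mean square distance between log2 CPM values centred on the siCtrl mean. The nearest genes were FJX1 (0.0499), TRIM8 (0.0531), MIPEP (0.0554), GPR176 (0.0626) and CYTOR (0.0627), where the median distance was 0.556. Their log2 fold changes lay between 0.77 and 0.82, close to the 0.79 of MAP3K14. The 10 libraries are only 2 groups, so the measure follows the shift between the groups more than the spread within them. Among the members, RELB was nearest to MAP3K14 (0.0828, place 29), followed by TRAF3 (0.140, place 266) and NFKB2 (0.182, place 499). BIRC3 was the farthest member (0.698, place 7848), with the larger log2 fold change of 1.76.

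**Figure D3:**
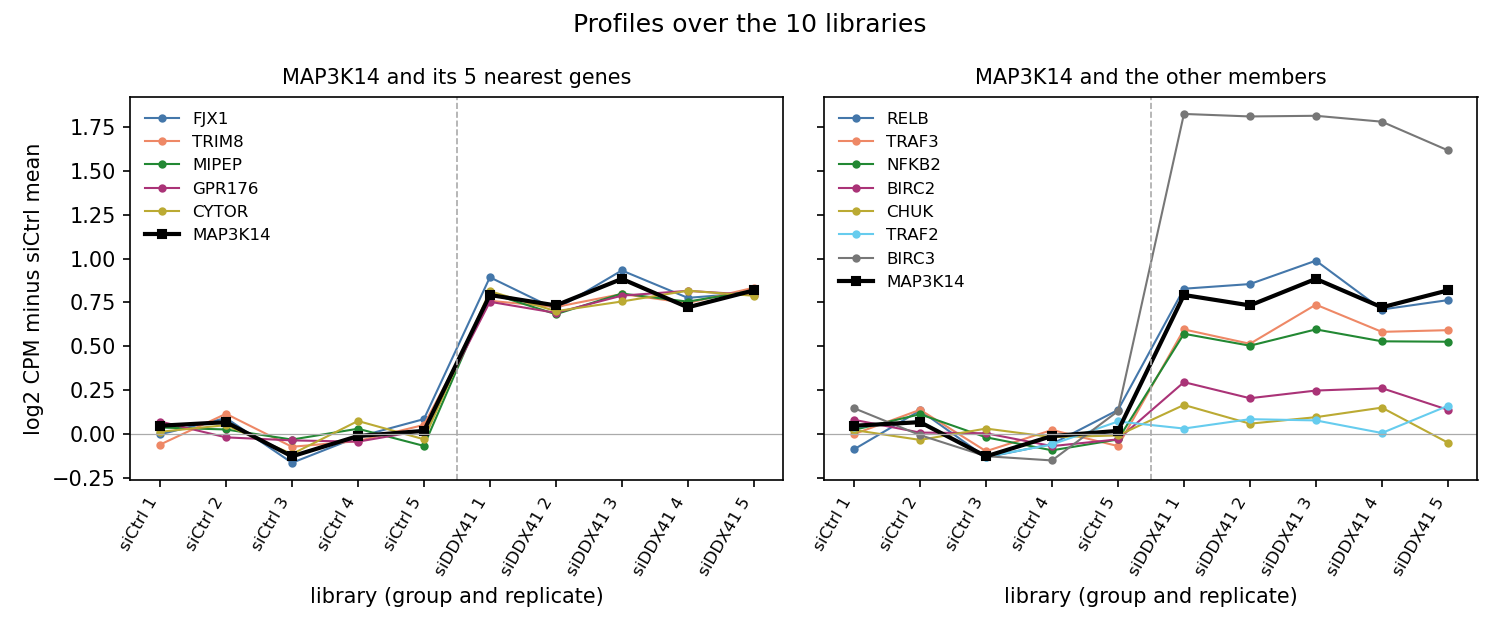
Log2 CPM minus the siCtrl mean in each library (x axis: group and replicate; lines join the values of a gene and carry no order) for MAP3K14 with its 5 nearest genes (left) and with the other members (right). RELB runs closest to MAP3K14 among the members, and BIRC3, with a log2 fold change of 1.76, lies above it in every siDDX41 library.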

How the data were processed

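Per the labels and the methods of the study, the authors made stranded libraries from polyadenylated RNA, used STAR 2.7 for alignment to hg38 (Gencode 25) and featureCounts 1.6 for counting. The deposited values are counts, one whole number per gene and library, not normalized by the authors. Neither the strand setting nor the rule for reads with several places was given in the sources used here. Identifiers without version were matched to GENCODE release 44 on GRCh38 for names, positions and exon lengths (6306 identifiers had no match).

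The fit over all genes used edgeR 4.0.16 under R 4.3.3 (low-count filter filterByExpr, TMM, robust glmQLFit and glmQLFTest, Benjamini-Hochberg adjustment over 16143 genes, adjusted p under 0.01), checked on simulated counts. SE was derived from the F statistic. Alternatives were DESeq2 1.42.0, other scaling, filter and thresholds, a replicate block, and leaving out each library. Other tables were made in Python 3.11.15. The members and lists were chosen with earlier results of these data known. Named genes were the members, DDX41, list genes of at least 1 CPM (values for up to 4 per role by adjusted p), up to 3 relatives per direction, response genes past the filter, genes overlapping a member and the 5 nearest genes. Protein sequences were not used here, and the values of IKBKG are not reported.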

Additional observations from a re-analysis of the deposited data

Results flagged for a closer look

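Among 102 groups of 5 libraries (51 genes), 6 held a library whose gap to the nearest other library took more than 0.71 of the group's range. Chance gives about 1 in 20 groups, so this number is close to what chance gives. The member was BIRC3, with siDDX41 replicate 5 at 29.4 CPM below the others at 32.9 to 33.9 CPM. The pathway genes were TNFRSF9, with siDDX41 replicate 2 at 7.90 CPM below 9.02 to 9.37 CPM, CD70, with siCtrl replicate 3 at 20.7 CPM below 24.6 to 25.6 CPM, and TNFSF9, with siCtrl replicate 3 at 8.20 CPM below 10.95 to 12.04 CPM. In the comparison lists, NFKB1 in siDDX41 replicate 1 stood at 66.2 CPM below 71.6 to 72.9 CPM, and BIRC6 in siDDX41 replicate 4 at 99.8 CPM below 119 to 127 CPM. In 5 of these 6 genes the call was the same in each fit that left out 1 library. The exception was TNFSF9, which was no longer called without siCtrl replicate 3.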

How the results depend on the processing

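Every log2 fold change of DDX41 and of the 8 members kept its sign in 15 alternative fits, and those of the members moved by less than the replicate SD pooled over both groups. In fits that dropped a single library, log2 fold changes ran from 0.76 to 0.81 for MAP3K14, 1.73 to 1.80 for BIRC3, 0.79 to 0.86 for RELB, 0.57 to 0.64 for TRAF3, 0.52 to 0.57 for NFKB2, 0.21 to 0.25 for BIRC2, 0.07 to 0.12 for CHUK and 0.04 to 0.09 for TRAF2. A limit of 0.25 on the absolute log2 fold change left 5 of the 10 other pathway genes called higher and 2 of the 5 canonical genes called lower, by its own construction. Genes responding to RelB:p52 were called in 1 case without the filter and in 1 with DESeq2, both CXCL12, against 0 with the filter, since more genes were tested. Genes called over the whole table ran from 3406 to 5626 higher and from 4101 to 5794 lower. With the replicate block, 4790 genes were called higher and 5097 lower, and no log2 fold change of a member moved by more than 0.0013. Same-numbered libraries did not deviate together (correlations from -0.078 to 0.060), so the numbers were not taken as pairs, and not every library correlated best with its own number. With the length of the longest transcript, the order of member levels was the same in siCtrl, but TRAF3 and BIRC3 changed places in siDDX41, and which neighbours overlapped changed in both groups. The matches in member promoters all lay before the start site. Depth limits genes below about 1 CPM, and transcript counts do not show NIK protein.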
